A study of Mus musculus with 6 samples.

Results

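Messenger RNA of 29 genes of cholesterol synthesis, its control, and sterol uptake, storage and export was compared between untreated and flavonoid-treated 3T3-L1 cells. The genes were taken by symbol, and all 29 had a row among the 46095 genes of the deposited table. They comprise 8 enzymes of the early mevalonate pathway, 11 enzymes from squalene to cholesterol, 4 regulators, 3 genes of uptake and transport, and 3 of export and storage. 3T3-L1 is a line of mouse embryo fibroblasts that turn into fat-storing cells under hormonal induction, and all cells were sampled 8 days after differentiation. The control group (3 samples) received no treatment. The other group (3 samples) received Smilax glabra flavonoids at 0.125 μg/mL. The plant is a climber used in herbal medicine, and the labels do not list what its flavonoid fraction contains. Whether the 3 samples of a group were separate cultures is not stated, so the p-values cover the spread among these samples, which may be technical.

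Cells make cholesterol from acetyl-CoA in a long chain of enzymes that share a common switch. When the endoplasmic reticulum runs short of sterol, the escort protein SCAP carries the transcription factor SREBP to the Golgi, where it is cut and released to the nucleus, and it then raises most genes of the chain. INSIG proteins hold SCAP back when sterol is plentiful, while oxysterols activate the nuclear receptor LXR, which raises the genes of export. In fat cells a large pool of free cholesterol lies in the lipid droplet surface and the plasma membrane, caveolae included.

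Values are FPKM, which are fragments scaled for transcript length and sequencing depth. Whole fragments recovered from the steps between values came to between 21952064 and 26355863 per library. Between 47 and 99 fragments stood behind each value of Idi1, the sparsest member, whose counting error reached 14.6%, against 1.43% at the fewest fragments of Sqle. Of 12 mature adipocyte markers, 4 had a mean of at least 1 FPKM, and Adipoq, Plin1, Cfd, Retn, Slc2a4, Cd36, Lep and Cidec lay below it. Of 8 preadipocyte and fibroblast markers 7 did, and their summed level was 2659 to 3150 FPKM in untreated and 2130 to 2407 FPKM in treated samples. Most of this sum was Col3a1 (means of 1284 untreated and 1066 treated) and Col1a1 (894 and 663 FPKM), neither of them called. Of the 7 tested, 6 had a negative and 1 a positive estimate, and only Thy1 was called, lower. The sum itself was given no test, and its part in the results below was not tested. The summed adipocyte markers ran from 386 to 416 FPKM in untreated and from 346 to 518 FPKM in treated samples. Most of that sum was Fabp4 (means of 219 untreated and 170 treated) and Lpl (163 and 262 FPKM), which pointed in opposite directions and were not called. The hepatocyte markers Alb, Ttr and Cyp7a1, the endothelial Cdh5 and Kdr, and the leukocyte marker Ptprc were listed at 0 in all 6. The other markers of these lists were not. Apoa1, Pecam1, Adgre1 and Csf1r had means under 1 FPKM, and the macrophage marker Cd68 had a mean of 1.76 FPKM. Of 4 smooth muscle-like markers, Cnn1 and Myh11 lay under 1 FPKM. Acta2 (means of 328 untreated and 339 treated) and Tagln (18.8 and 10.4 FPKM) lay above it, neither of them called. In such bulk RNA, fewer cells of a type and less RNA per cell cannot be told apart.

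The untreated libraries differed among themselves along transcript length. Across the 29 genes, the log2 difference between libraries had a Spearman rho with the gene length implied by the values of 0.75 for replicate 3 minus 1, 0.65 for 3 minus 2 and 0.61 for 2 minus 1. Across all 11464 tested genes rho was 0.75, 0.65 and 0.65. These are descriptions across genes that share the same pairs of libraries, and the values do not show which library departs from the others. Of the 29 genes, 17 were lowest of the untreated group in replicate 1, 12 in replicate 3 and 0 in replicate 2. Short transcripts such as Pmvk, Fdps and Acat2 were lowest among the untreated samples in replicate 3, and long ones such as Srebf2, Scap and Abca1 were highest there. Not all genes followed this. Fdft1 and Cyp51, with implied lengths of 5140 and 4381 bp against 4322 bp for Scap, were lowest in replicate 3. The 3 genes that passed the test also passed without untreated replicate 3, at log2 changes of 0.89 for Insig1, -0.73 for Sqle and 0.50 for Ebp, and without untreated replicate 1, at 0.76, -0.75 and 0.76. Srebf2, not called in either fit, moved from 0.24 with all 6 libraries to 0.40 without untreated replicate 3 and 0.08 without untreated replicate 1.

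Flavonoid-treated cells had more Insig1 and Ebp messenger RNA and less Sqle messenger RNA, and no other of the 29 genes passed the test (limma on log2(FPKM + 1), threshold of 0.05 after Benjamini-Hochberg adjustment). All 29 reached the minimum mean of 1 FPKM. Over all 11464 tested genes 9.99% were called, and 3 of 29 (10.3%) is close to that share. By direction, 2 members were called higher and 1 lower, where 4.86% and 5.13% of all tested genes were. The 3 treated values lay wholly above the untreated ones in 8 members and wholly below in 6, against 17.0% and 17.3% of tested genes (34.3% in all), and the groups overlapped in 15. The median log2 change was 0.09 over the 29 and -0.02 over all tested genes. A fold change on this scale understates the change of weakly expressed genes.

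**Figure D1:**
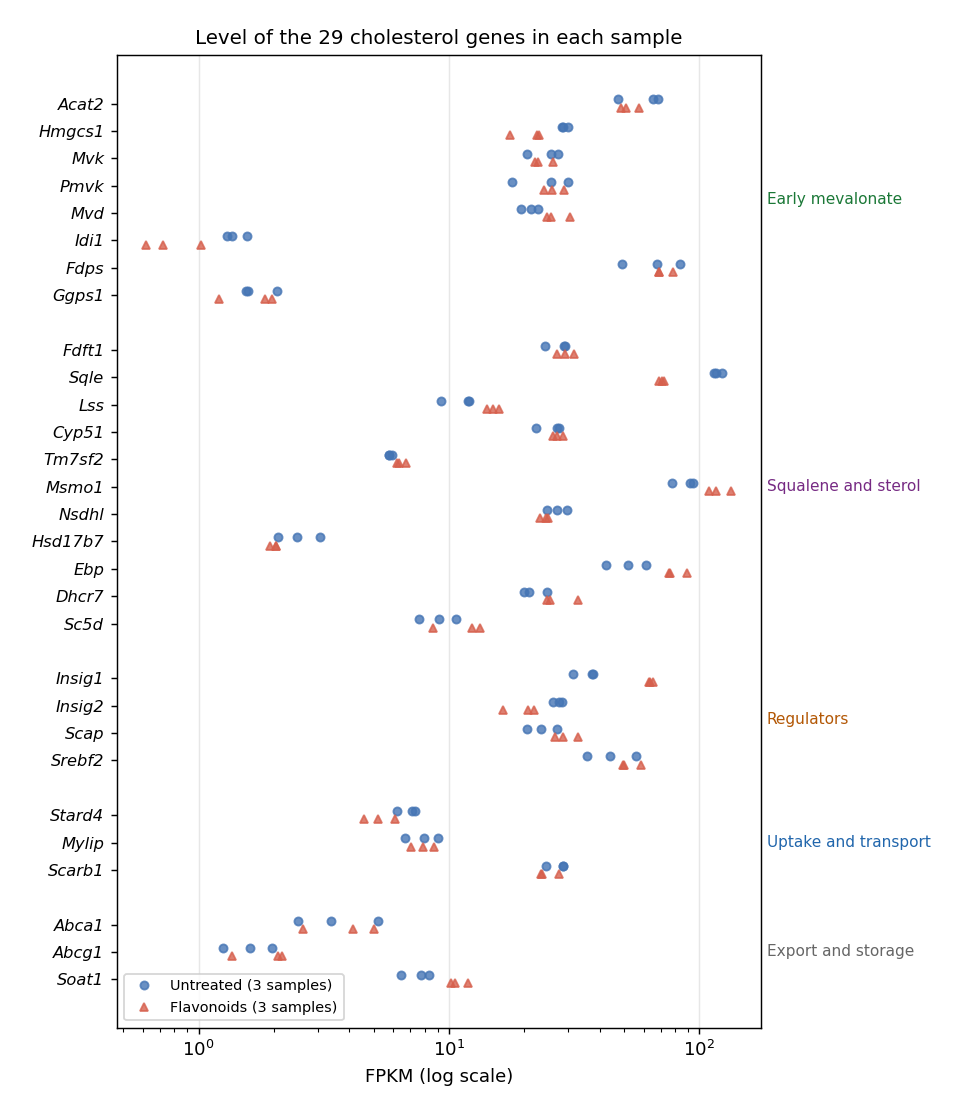
FPKM of the 29 genes on a log axis, with 3 untreated samples (circles) and 3 flavonoid-treated samples (triangles) per gene, grouped by role. Levels run from 0.618 FPKM for Idi1 to 134 FPKM for Msmo1. Treated values lie wholly above the untreated ones in 8 genes and wholly below in 6, the called Sqle, Insig1 and Ebp among them.

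FPKM is a level per transcript length, so the genes can be ranked by it. In untreated cells Sqle, the squalene epoxidase, had the highest mean of the 29 at 118 ± 4.75 FPKM (SD, n = 3), followed by Msmo1 at 87.9 ± 8.89 and Fdps at 66.7 ± 17.2 FPKM. In treated cells Msmo1 led at 120 ± 12.5 FPKM, Ebp stood second at 80.2 ± 7.57 FPKM, and Sqle took rank 4 at 70.8 ± 1.66 FPKM. Fdps, at 72.1 ± 5.59 FPKM, and Sqle did not differ beyond their spread in that order. The least abundant in either group was Idi1. Hsd17b7, Ggps1, Abcg1 and Abca1 also stayed under a mean of 5 FPKM.

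Among the early mevalonate enzymes, which build the isoprenoid units, 0 of 8 were called by limma on log2(FPKM + 1), 1 had an unadjusted p under 0.05 in the higher and 2 in the lower direction, and limma voom on the recovered fragments, which called 10.1% of all genes, called 0. Their median log2 change was -0.04. Hmgcs1 makes HMG-CoA near the entry to the pathway. Its levels were 28.6, 29.9 and 28.2 FPKM in untreated and 22.5, 22.8 and 17.5 FPKM in treated samples. All treated values lay below all untreated ones, and the log2 change of -0.46 (SE 0.13, 95% interval -0.75 to -0.16) narrowly missed the threshold (limma adjusted p = 0.0594). The gene is on chromosome 13, from 119690379 to 119708260 (GENCODE M21 on GRCm38, as are all gene positions here).

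Idi1, the isopentenyl diphosphate isomerase, was also lower in every treated sample, at 1.56, 1.36 and 1.30 FPKM untreated and 1.02, 0.618 and 0.718 FPKM treated. Its log2 change was -0.44 (limma adjusted p = 0.107), and the treated mean of 0.784 FPKM lies below the minimum that the gene passed through its untreated values. Mvd, the mevalonate diphosphate decarboxylase that acts just before Idi1, pointed the other way, with 21.2, 22.7 and 19.4 FPKM untreated against 24.7, 25.5 and 30.4 FPKM treated. Its groups did not overlap, with a log2 change of 0.33 (95% interval 0.05 to 0.61, limma adjusted p = 0.129).

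The other 5 early enzymes had overlapping groups. Acat2, the cytosolic thiolase that joins the first acetyl-CoA units, measured 60.2 ± 11.1 FPKM untreated and 52.3 ± 4.40 FPKM treated (SD, n = 3 per group). The mevalonate kinase gene Mvk measured 24.4 ± 3.50 and 23.6 ± 2.16 FPKM, and the phosphomevalonate kinase gene Pmvk 24.4 ± 6.05 and 26.2 ± 2.55 FPKM. Fdps, which makes farnesyl diphosphate, ran from 49.2 to 83.5 FPKM in untreated samples alone, a range that contains all 3 treated values. Ggps1, which lengthens farnesyl diphosphate for protein prenylation, measured 1.72 ± 0.285 and 1.68 ± 0.408 FPKM. The 95% interval of the log2 change included 0 for each of these 5.

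From squalene to cholesterol, 1 of 11 enzymes was called higher and 1 lower (18.2%, against 9.99% of all tested genes). Their median log2 change was 0.12, against -0.02 over all tested genes. Sqle, which adds oxygen to squalene and is a slow, regulated step of the chain, fell (chromosome 15, 59315077 to 59331192). Its levels were 114, 123 and 117 FPKM in untreated and 70.9, 69.2 and 72.5 FPKM in treated samples. The lowest untreated value exceeded the highest treated value by far more than the spread within either group. The mean was 1.66-fold lower, with a log2 change of -0.73 (SE 0.10, limma adjusted p = 0.00591). Without untreated replicate 2 the change was -0.69 with adjusted p = 0.0632, and over all alternatives the adjusted p ran from 0.000417 to 0.0632.

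Ebp, the sterol isomerase that shifts a double bond late in the chain, rose (chromosome X, 8185329 to 8193512). It measured 61.3, 51.8 and 42.4 FPKM in untreated and 76.2, 75.5 and 88.9 FPKM in treated samples. Every treated sample was above every untreated one, although the untreated samples were widely spread. The mean was 1.55-fold higher, with a log2 change of 0.63 (SE 0.15, limma adjusted p = 0.0344). Ebp was called in 13 of 19 alternatives, with an adjusted p between 0.00247 and 0.141. Among those that lost the call were the fits without untreated replicate 2 (adjusted p = 0.141), without flavonoids replicate 1, 2 or 3 (0.104, 0.0883 and 0.113) and with no minimum level (0.0919), where the log2 change was 0.56 to 0.67.

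Other enzymes of this group had higher values in treated samples without passing the test. Lss, which folds squalene epoxide into lanosterol, measured 9.29, 11.9 and 12 FPKM untreated and 15, 14.2 and 15.8 FPKM treated (log2 change 0.42, limma adjusted p = 0.0849). Msmo1, which oxidises methyl groups of the sterol ring, measured 94.2, 91.9 and 77.7 FPKM untreated and 134, 117 and 109 FPKM treated (log2 change 0.44, limma adjusted p = 0.0657). In both genes the groups did not overlap. Dhcr7, the reductase that yields cholesterol, measured 20.0, 20.9 and 24.6 FPKM untreated and 24.6, 25.4 and 32.7 FPKM treated (log2 change 0.32, limma adjusted p = 0.198), where the groups nearly touch. Tm7sf2, a sterol reductase, differed little, at 5.82 ± 0.0924 and 6.43 ± 0.286 FPKM, although its groups did not overlap either.

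Hsd17b7, a ketosteroid reductase of the demethylation complex, had 2.52 ± 0.487 FPKM untreated and 2.0 ± 0.0577 FPKM treated, with every treated value below the untreated ones. The overlapping members were Fdft1 (squalene synthase), Cyp51 (lanosterol demethylase), Nsdhl (a dehydrogenase of the same complex) and Sc5d (a desaturase), whose log2 changes ran from -0.16 to 0.29. Sc5d measured 7.58 to 10.7 FPKM untreated and 8.60 to 13.3 FPKM treated. The order of Sqle and Msmo1, the most abundant members in untreated cells, was reversed in treated cells. Sqle stood at 1.21, 1.34 and 1.5 times Msmo1 in the untreated samples and at 0.530, 0.591 and 0.662 times in the treated ones. This ratio was chosen after its values were seen and was given no test.

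**Figure D2:**
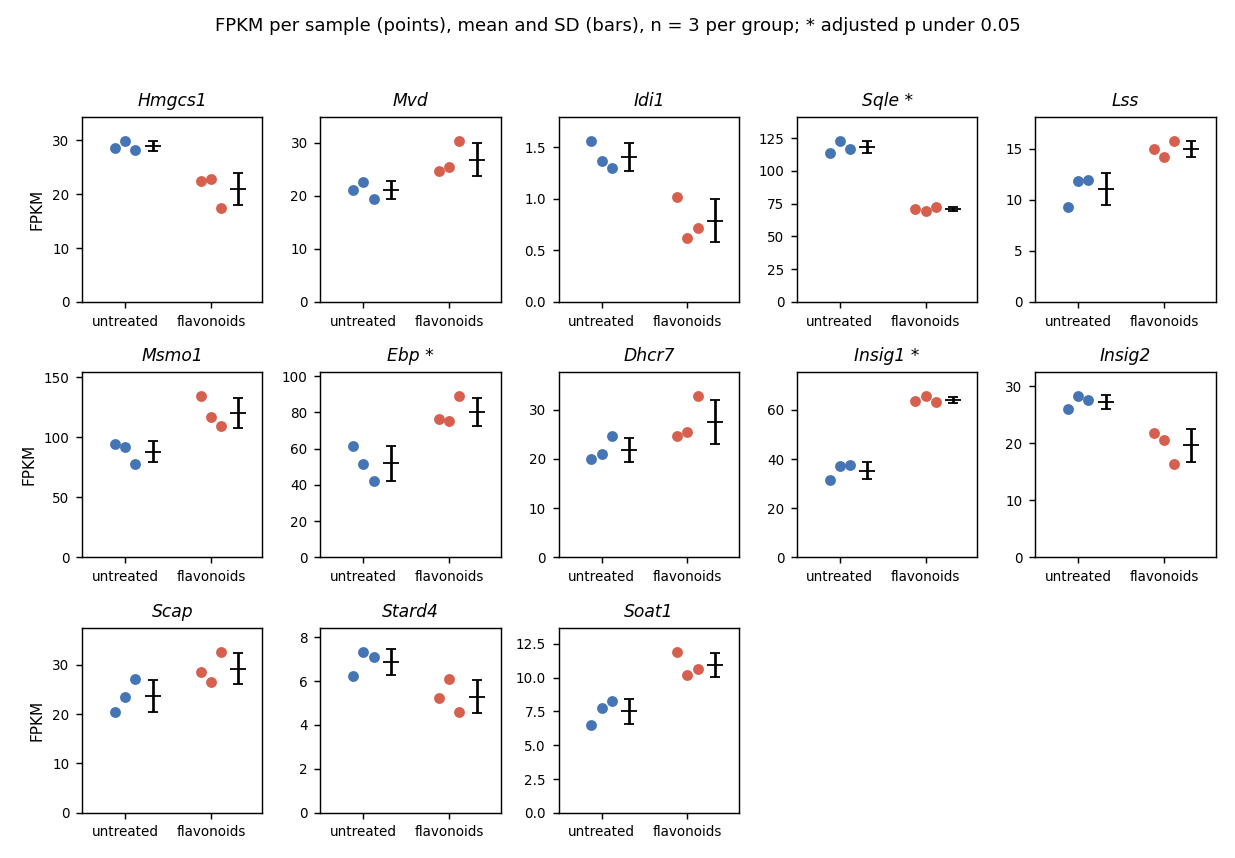
FPKM in each sample (points) with mean and SD (bars, n = 3 per group) for the 3 genes past the threshold, starred, and the 10 others of smallest p, each on its own linear axis from 0. The 3 treated Sqle values sit between 69.2 and 72.5 FPKM, and the 3 treated Insig1 values between 63.1 and 65.5 FPKM.

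Of the 4 regulators, 1 was called higher and 0 lower, where 4.86% and 5.13% of all tested genes were. Their median log2 change was 0.27, against -0.02 over all tested genes. Limma on log2(FPKM + 1) gave 1 lower member an unadjusted p under 0.05, and voom called 0 lower. Insig1, the sterol-responsive anchor of SCAP and itself a target of SREBP, rose (chromosome 5, 28071363 to 28078662). It measured 31.3, 37.1 and 37.5 FPKM in untreated and 63.5, 65.5 and 63.1 FPKM in treated samples. The treated samples lay close together and far above the untreated ones. The mean was 1.81-fold higher, with a log2 change of 0.85 (SE 0.11, limma adjusted p = 0.00515), and the call held in all 19 alternatives (0.000383 to 0.0412).

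Insig2, the related anchor whose gene is less tied to SREBP, pointed the other way. It measured 25.9, 28.2 and 27.6 FPKM untreated and 21.8, 20.6 and 16.4 FPKM treated, without overlap. The log2 change of -0.47 (SE 0.13, 95% interval -0.76 to -0.17) missed the threshold (limma adjusted p = 0.0588). The 2 anchors were thus near parity in untreated cells, with 1.21, 1.32 and 1.36 times as much Insig1 as Insig2, and at 2.92, 3.18 and 3.86 times in treated cells. This ratio too was chosen after its values were seen and was given no test.

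Scap, the escort itself, measured 20.5, 23.4 and 27.1 FPKM untreated and 28.5, 26.5 and 32.6 FPKM treated, with groups that overlap (log2 change 0.30, limma adjusted p = 0.208). Srebf2, which encodes the SREBP form most tied to cholesterol genes, measured 35.5, 44.0 and 55.7 FPKM untreated and 50.1, 49.6 and 58.2 FPKM treated (log2 change 0.24, limma adjusted p = 0.397). The spread of Srebf2 among untreated samples was wider than the difference between group means.

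Promoter sequences are shown for Insig1 and Ebp, the called-higher members that have an entry in the RefSeq table (GRCm38.p6), and for Hmgcs1, a textbook SREBP target that pointed down. Each is the 250 bases before the RefSeq start, 5′ to 3′ on the strand of the gene. They lie at chr5:28071162-28071411 (plus strand), chrX:8193513-8193762 (minus strand) and chr13:119690101-119690350 (plus strand). Capitals mark, on either strand, TCACNCCAC (a sterol regulatory element core), CCAAT (read by NF-Y) and GGGCGG (read by Sp1), which are the cofactor sites usual beside such elements.
Insig1: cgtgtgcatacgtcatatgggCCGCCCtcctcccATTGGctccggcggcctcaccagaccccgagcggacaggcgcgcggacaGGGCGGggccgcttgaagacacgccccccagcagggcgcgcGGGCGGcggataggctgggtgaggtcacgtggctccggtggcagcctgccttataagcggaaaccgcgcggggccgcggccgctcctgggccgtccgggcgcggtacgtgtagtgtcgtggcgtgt
Ebp: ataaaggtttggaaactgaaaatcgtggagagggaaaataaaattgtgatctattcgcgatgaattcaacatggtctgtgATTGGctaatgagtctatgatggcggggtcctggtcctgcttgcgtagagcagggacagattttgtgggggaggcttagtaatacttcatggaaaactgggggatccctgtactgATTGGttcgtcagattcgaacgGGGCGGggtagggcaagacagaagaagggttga
Hmgcs1: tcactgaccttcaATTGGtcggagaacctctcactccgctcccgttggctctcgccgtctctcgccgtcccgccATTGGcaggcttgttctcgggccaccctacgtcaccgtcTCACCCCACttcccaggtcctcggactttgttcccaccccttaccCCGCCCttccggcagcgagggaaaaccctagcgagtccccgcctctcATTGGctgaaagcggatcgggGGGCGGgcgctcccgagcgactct
TCACNCCAC was found in 1 of the 23 members with an entry, Hmgcs1, from 137 to 129 bases before its start, and in 1.22% of the 27025 genes of the table. CCAAT was found in 20 of the 23, against 37.5% of all genes, and GGGCGG in 20 of the 23, against 35.4%. Ebp holds CCAAT ending 51 bases and 166 bases before its start, and Insig1 ending 212 bases before. Hmgcs1 has it 3 times. The motifs do not overlap each other in these promoters. Insig1, Ebp, Hmgcs1 and Insig2 all hold CCAAT and GGGCGG, as do most members with an entry. Whether either motif relates to the changes was not tested. A match is a run of letters and was not tested as a site. A missing match does not show that a gene lacks a sterol regulatory element, since only these exact patterns in 250 bases were searched. Sqle, the member called lower, had no entry and was not searched.

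Uptake and transport showed 0 of 3 genes called by limma on log2(FPKM + 1), with 1 at an unadjusted p under 0.05 (lower) and 0 called by voom on the recovered fragments. Their median log2 change was -0.13. Stard4, a soluble carrier that moves cholesterol between membranes and is an SREBP target, measured 6.21, 7.33 and 7.09 FPKM untreated and 5.22, 6.08 and 4.57 FPKM treated. The treated values were all lower, by a log2 change of -0.33 (95% interval -0.65 to -0.01, limma adjusted p = 0.173). Mylip, an LXR-induced ubiquitin ligase that sends lipoprotein receptors to degradation, measured 7.90 ± 1.20 and 7.88 ± 0.806 FPKM, with a 95% interval of -0.33 to 0.33. Scarb1, the receptor for high-density lipoprotein, measured 27.1 ± 2.36 and 24.8 ± 2.40 FPKM (log2 change -0.13, 95% interval -0.41 to 0.15).

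Export and storage also had 0 of 3 genes called by limma on log2(FPKM + 1), with 1 at an unadjusted p under 0.05 (higher), and voom on the recovered fragments called 1, Soat1. Their median log2 change was 0.13. Soat1, which esterifies cholesterol for storage in droplets, measured 6.46, 7.73 and 8.30 FPKM untreated and 11.9, 10.2 and 10.6 FPKM treated, without overlap. Its mean was 1.45-fold higher and its log2 change 0.49 (SE 0.13, limma adjusted p = 0.054), and it was called in 7 of 19 alternatives (0.00492 to 0.201). The exporters showed no such separation. Abca1, which loads cholesterol onto apolipoproteins, measured 2.50, 3.39 and 5.20 FPKM untreated and 5.01, 4.12 and 2.60 FPKM treated. Its interval was wide, -0.50 to 0.64 on the log2 scale. Abcg1, which exports to mature lipoprotein particles, measured 1.61 ± 0.360 and 1.86 ± 0.436 FPKM (log2 change 0.13, 95% interval -0.27 to 0.53).

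**Figure D3:**
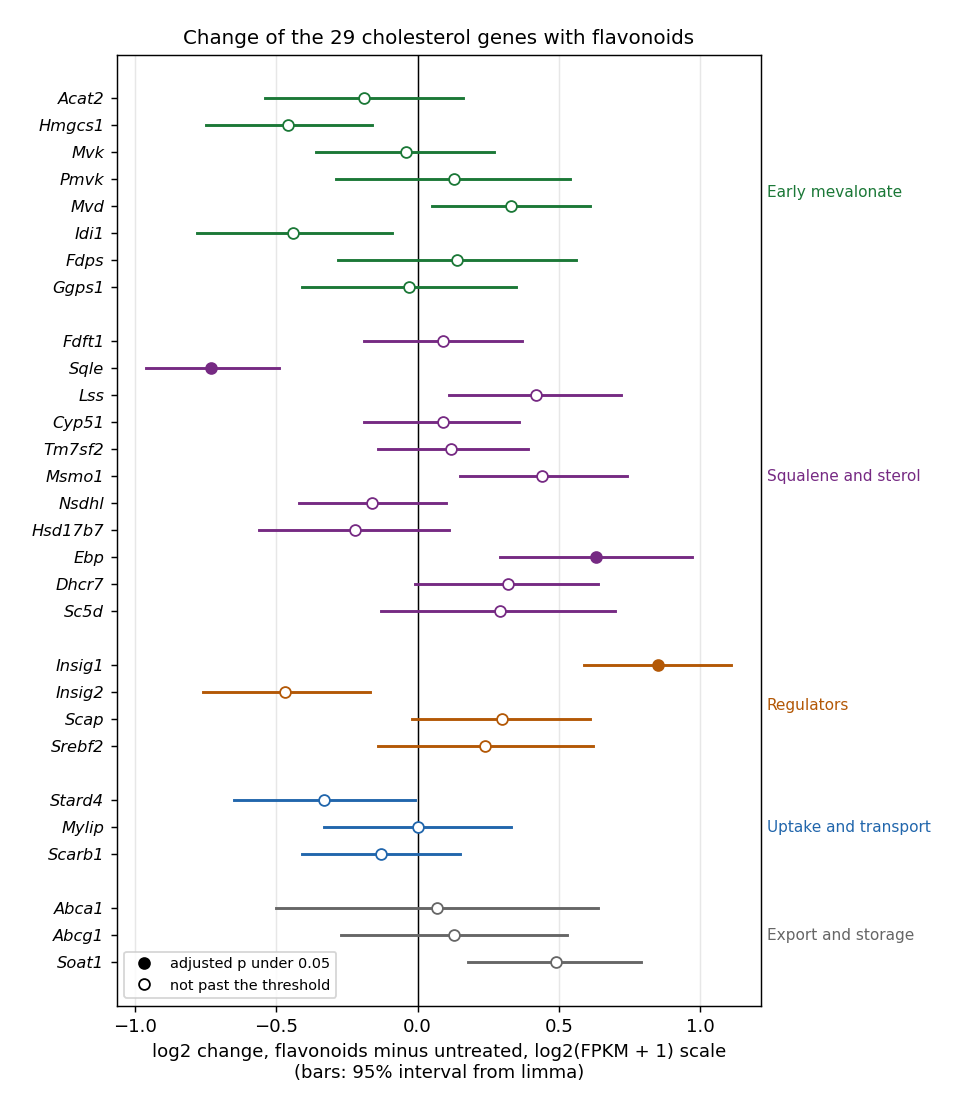
Log2 change of each of the 29 genes, flavonoids minus untreated, with its 95% interval from limma, and filled points for genes past the adjusted threshold. Sqle lies at -0.73, Ebp at 0.63 and Insig1 at 0.85, and estimates within the early mevalonate, sterol and regulator groups fall on either side of 0.

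Counting both enzyme groups, 11 of 19 synthesis enzymes had a positive and 8 a negative estimate. The summed level of the early mevalonate genes was 186 to 259 FPKM untreated and 215 to 240 FPKM treated, and that of the squalene and sterol genes 363 to 404 and 402 to 421 FPKM, so the groups overlap in both. The regulators summed to 113 to 148 FPKM untreated and 162 to 170 FPKM treated, without overlap, with Insig1 as the largest part of the difference. These sums weight abundant genes most and carry no test.

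Other genes of cholesterol metabolism were taken from 8 further lists with 90 genes, of which 89 had a row and 78 were tested. Among these 8 were called higher and 3 lower, 14.1% in all against 9.99% over all tested genes. By direction, 4.86% of all tested genes were called higher and 5.13% lower. The lists were chosen with earlier results of these data known, and their shares were given no test. Intracellular sterol transfer held 4 of these 11, with 3 of 14 higher and 1 lower. That was the largest share of the 8 lists, 28.6%, and was given no test. Cav1 was called in all 19 alternatives, Stard5 and Osbpl2 in 17, and the other 8 in 7 to 14. Stard5, a sterol-binding carrier, measured 18.0, 16.4 and 16.5 FPKM untreated and 31.2, 27.4 and 29.3 FPKM treated (log2 change 0.75, limma adjusted p = 0.0067). Stard5 rose, whereas the related carrier Stard4, given above, had lower values in treated cells. Gramd1b, which carries plasma membrane cholesterol to the endoplasmic reticulum, measured 1.20, 1.87 and 2.45 FPKM untreated and 4.42, 4.12 and 4.67 FPKM treated (log2 change 0.95, limma adjusted p = 0.0153). Osbpl2, an oxysterol-binding-protein relative, measured 20.1, 20.7 and 21.1 FPKM untreated and 33.9, 31.5 and 35.3 FPKM treated (log2 change 0.68, limma adjusted p = 0.00833). Cav1, the cholesterol-binding coat protein of caveolae, fell. Its values were 151, 191 and 165 FPKM untreated and 64.9, 74.2 and 63.6 FPKM treated, a 2.50-fold lower mean (log2 change -1.31, limma adjusted p = 0.00232).

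Around SREBP itself, 2 of 13 genes of its processing and of sterol-driven protein degradation were called higher and 0 lower, by limma and by voom alike, with 0 lower at an unadjusted p under 0.05. The limma calls are 15.4% of the list, where 4.86% of all tested genes were called higher and 5.13% lower. Erlin1, part of the endoplasmic reticulum complex that restrains SREBP, measured 15.1, 15.3 and 16.0 FPKM untreated and 25.8, 23.3 and 19.8 FPKM treated (log2 change 0.53, limma adjusted p = 0.0332). Spring1, a licensing factor for SREBP cleavage found in the table under its older symbol, had 5.92 ± 0.243 FPKM untreated and 9.98 ± 1.37 FPKM treated (limma adjusted p = 0.0184). Both called genes had groups without overlap, as had 34.3% of all tested genes.

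Of 12 tested oxysterol receptor, target and apolipoprotein genes, 1 was called higher and 1 lower (16.7%, against 9.99% of all tested genes). Nr1h3, which encodes LXR alpha, rose 1.58-fold. It measured 9.38, 9.49 and 7.05 FPKM untreated and 13.6, 12.6 and 14.8 FPKM treated (log2 change 0.61, limma adjusted p = 0.0308). Apoc1, a small apolipoprotein, fell, with means of 8.60 ± 1.54 FPKM untreated and 4.81 ± 0.582 FPKM treated (limma adjusted p = 0.0236). Its values rest on 57 to 127 fragments, and voom did not call it.

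Among 7 genes of oxysterol synthesis and ester turnover, 1 was called, Soat2, the second esterifying enzyme. It was near the detection minimum, at 0.554, 0.462 and 1.21 FPKM untreated and 2.57, 1.93 and 1.48 FPKM treated (log2 change 0.79, limma adjusted p = 0.0479), passed that minimum through the treated values, and was called in 7 of 18 alternatives. Of 5 genes of acetyl-CoA supply, Acss2, which makes acetyl-CoA from acetate and is an SREBP target, was 1.48-fold lower, with 14 ± 1.06 FPKM untreated and 9.46 ± 0.775 FPKM treated (limma adjusted p = 0.0301). Of 7 further enzymes, Hsd17b12, a reductase mainly of fatty acid elongation, rose 1.41-fold (limma adjusted p = 0.0315). None of the 13 isoprenoid-branch and 7 lipoprotein-receptor and lysosomal genes tested was called by limma or voom, with 1 of each at an unadjusted p under 0.05, both higher.

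Leaving out untreated replicate 2 left 0 of the 78 called higher and 2 lower, Cav1 and Slc25a1, with 10 and 6 at an unadjusted p under 0.05. Slc25a1, the mitochondrial citrate carrier, is named after its values were seen and was not called with all 6 libraries (limma adjusted p = 0.0981). It measured 9.52, 2.52 and 12.8 FPKM untreated and 2.31, 2.47 and 2.26 FPKM treated, and untreated replicate 2 lay just above the highest treated value. In that fit the count over all tested genes also dropped, to 64 higher (0.559%) and 76 lower (0.664%).

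**Figure D4:**
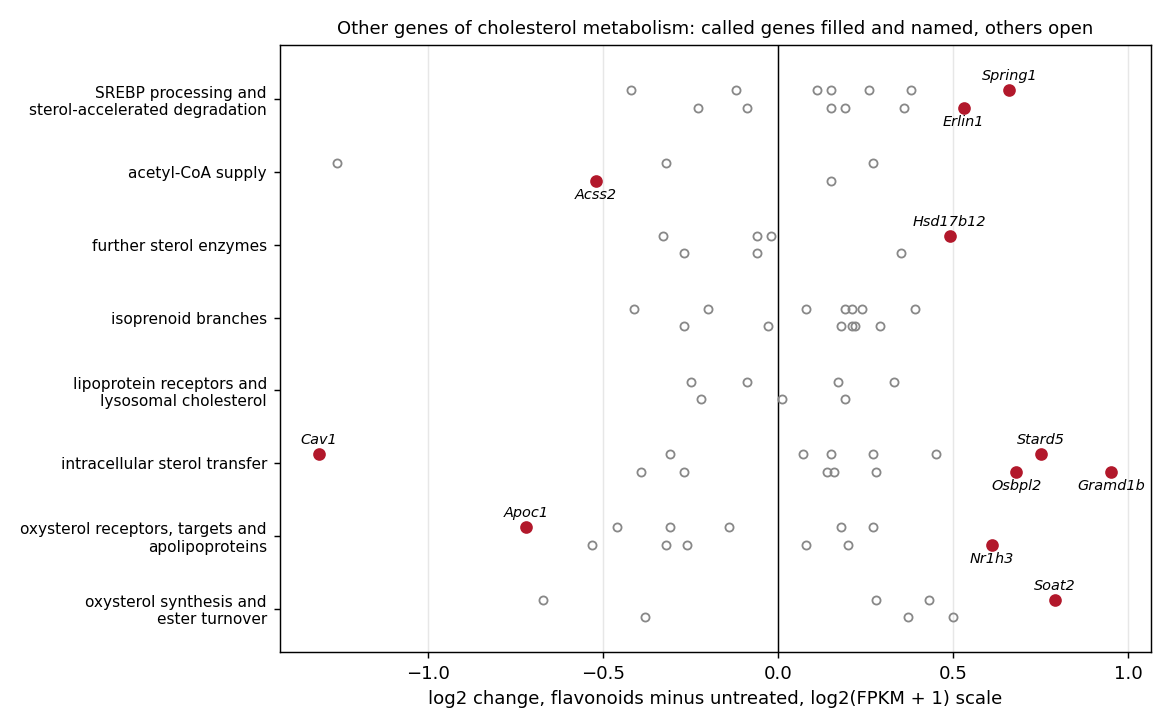
Log2 change, flavonoids minus untreated, of the 78 tested genes of 8 further lists of cholesterol metabolism, with called genes filled and named. The called genes range from Cav1 at -1.31 to Gramd1b at 0.95.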

How the data were processed

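Messenger RNA of 6 libraries was analysed from the FPKM values the authors deposited, 1 table with 1 column per sample and no column left unused. The alignment used HISAT2 and mm10, and FastQC served for read quality, per the submitters' processing notes. For the fragment counter, annotation and strand setting, the sources used here give nothing. In GENCODE M21, 9 of the 29 genes share exon bases with another gene (Hmgcs1, Idi1, Fdps, Ggps1, Fdft1, Lss, Cyp51, Tm7sf2 and Scap), so part of their reads is uncertain.

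Whole fragments were solved from the FPKM steps within a tolerance of 0.005 fragments, for all 22235 genes above 0. Differences were tested with limma 3.58.1 (R 4.3.3) on log2(FPKM + 1), variances moderated along intensity, over the 11464 genes averaging 1 FPKM or more, two-sided, adjusted over all of them. On simulated data with 11464 genes, 0% of genes changed 1.25-fold, 44% of those changed 1.5-fold and 98% of those changed 2-fold were recovered. The simulation gave all genes the same spread between samples beyond counting error, and no length trend between libraries. Recovery in the real data may therefore be lower. An exact permutation test of 3 against 3 cannot go below p = 0.1 and was not used. The 29 genes and the lists were chosen with earlier results of these data known. All 29 are described, with full values for those called and the 10 others of smallest p, and the called genes of the other lists. Spring1, Ufd1 and Erg28 were matched by a RefSeq synonym, and Faxdc2 had no match. Python 3.11.15 with pandas 2.3.3 and matplotlib 3.10.9 made tables and figures. Alternatives were other scalings, filters, pseudocounts and variance models, voom, removal of a length trend, the replicate number as a block, and each library left out.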

Additional observations from a re-analysis of the deposited data

How the results depend on the processing

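Of the 29 genes, 22 kept their direction in all 19 alternatives that could be fitted for them, and 20 were called in none. The 11 called genes of the other lists kept theirs in every alternative fitted, a check added after seeing the data. Members called higher (2) and lower (1) came to 1 higher without a filter, 4 higher with median-ratio scaling, 4 and 3 with quantile normalization, and 5 and 3 with the length trend removed, where Insig1, Ebp, Sqle, Hmgcs1, Insig2, Lss, Msmo1 and Soat1 passed. Over the 6 fits that leave out a library they ranged from 1 to 3 and from 0 to 2, and the 0, in limma without untreated replicate 2, had 4 lower members at an unadjusted p under 0.05. Over all tested genes, 557 higher and 588 lower became 317 and 324 without a filter, and 641 and 536 with median-ratio scaling. They became 710 and 666 with quantile normalization, and 1379 and 1131 of 11464 genes with the length trend removed. In these last 3 settings, where more members were called higher, more genes over the whole table were too. With a library left out, the counts over all tested genes ran from 64 to 875 and from 76 to 827.

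The median of the squalene and sterol genes moved from 0.12 to 0.08 with a pseudocount of 5 or TPM, 0.20 at a mean of at least 5 FPKM, 0.22 with quantile normalization and 0.18 with the length trend removed, with or without the block. That of the regulators ranged from 0.14 to 0.40 with a library left out. That of export and storage was 0.49 at a mean of at least 5 FPKM, where Soat1 alone was left, and 0.03 to 0.29 with a library left out. Near 0, signs turned for Mvk (0.00097 with median-ratio scaling, -0.16 to 0.04 with a library left out), Ggps1 (0.09 with quantile normalization, 0.07 with the length trend removed, -0.11 to 0.10), Mylip (-0.05 on the TPM scale, -0.10 to 0.10), Pmvk (-0.07 to 0.28), Fdps (-0.06 to 0.32), Cyp51 (-0.01 to 0.14) and Abca1 (-0.12 to 0.29). The cause was not tested.

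The labels do not say whether equal replicate numbers mark paired samples. Deviations from the group means correlated across genes at -0.143, -0.117 and -0.203 for same-numbered libraries. For differently numbered libraries the correlations ran from -0.085 to 0.169. These values cannot show whether samples were paired, because the untreated deviations also follow transcript length. With the replicate block, 1 member was called higher, Ebp being lost (adjusted p = 0.0896), and 220 and 237 genes in all. Of the 11 called genes of the other lists 3 higher and 1 lower passed with the block, Stard5, Osbpl2, Gramd1b and Cav1, while Erlin1, Spring1, Acss2, Hsd17b12, Nr1h3, Apoc1 and Soat2 did not. With the block and the length trend removed, 6 members were called higher and 3 lower, and 1106 and 911 genes in all, with Ggps1 at 0.07. At this depth counting error limits Idi1 and Soat2 most.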
